A study of Mus musculus with 8 samples.

Results

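A set of 10 genes of the Wnt signalling pathway were followed through bulk RNA sequencing of thymic epithelial cells (TECs), out of 56923 mouse genes counted in each library. They are the ligands *Wnt4*, *Wnt5a* and *Wnt5b*, the Dickkopf receptors *Kremen1* and *Kremen2*, the secreted Dickkopf family protein *Dkk3*, the R-spondin receptor *Lgr4*, the ubiquitin ligase *Znrf3*, and the feedback genes *Axin2* and *Nkd1*. The set was named with earlier results of these data known. *Kremen2* was chosen by the loss of its reads in 2D culture, so its level in 2D, and its level *in vivo* against the cultures, are given below as descriptions without a test. All 10 were matched to a single row by Ensembl identifier.

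The study compared TECs straight from the thymus with the same cells in 2 kinds of culture, to see which culture keeps them closer to their state in the organ. There were 8 libraries in 4 groups of 2, each group with 2 biological replicates. *In vivo* TECs were sorted as EpCAM-positive cells from E16.5 thymi and lysed at once. 2D-cultured TECs were grown as a monolayer on laminin and collected at confluence after 3 days, and organoids were grown in Matrigel and collected on day 3 (D3) or day 7 (D7). All cells were wild type with no treatment in the labels. The organoids and the 2D cultures shared a basal medium with FGF7, and its listed components include no Wnt ligand and no R-spondin. Organoids also had thiazovivin early on, which the study does not state for 2D. D3 organoids and 2D-cultured TECs were of equal culture time. D7 organoids had no 2D counterpart of their own age, so that time and form of culture cannot be told apart in that comparison.

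Wnt ligands bind a Frizzled receptor and an LRP5 or LRP6 co-receptor, and in the branch that runs through β-catenin this lets TCF and LEF factors switch on target genes. Many of those targets act back on the pathway. AXIN2 rebuilds the complex that destroys β-catenin, NKD1 binds Dishevelled, ZNRF3 removes Frizzled from the surface unless R-spondin and LGR4 take ZNRF3 away, and Kremen proteins together with a Dickkopf protein take LRP6 off the surface. In the thymus, epithelial cells themselves make Wnt ligands, WNT4 among them, and Wnt signals are known to act on *Foxn1*, the factor that drives TEC identity.

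Library totals lay between 5084715 and 7612532 counts. Values are CPM, that is, counts in proportion to the library total after scaling by TMM factors, and 1 count was worth 0.124 to 0.197 CPM. Up to 3 counts of a gene in a library were treated as the floor of detection. The QuantSeq 3′ method reads each transcript near its 3′ end, so CPM needs no division by transcript length, although the efficiency of reading can still differ between genes. Epithelial markers were found in every group. All 8 of the list were above the floor *in vivo* and at D7, and *Psmb11*, a cortical TEC gene, was at the floor in both 2D libraries and in D3 replicate 1. The summed level of 9 thymocyte markers was 602 and 257 CPM *in vivo* and 2.54 to 8.87 CPM in the 6 culture libraries. CD45 was among the stains used for the sort. In bulk RNA, fewer cells of a type and less RNA per cell cannot be told apart. The summed level of 10 mesenchymal markers was 22.4 to 81.4 CPM over all libraries, and 9 of the 10 were above the floor *in vivo*, with *Pdgfrb* at 8.16 and 4.22 CPM, *Dcn* at 18.2 and 23.1 CPM and *Pdgfra* at 0. Endothelial, myeloid and erythroid lists summed to at most 12.2 CPM.

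Short stretches around 2 kinds of motif near the members' starts are shown first, because they hold the letters that TCF and LEF factors and FOXN1 are known to read. CTTTGAT or CTTTGAA was searched as the TCF/LEF core and GACGC as the FOXN1 core, both on either strand, and the 2 cores do not overlap one another in letters. In the 250 bases before the start of the canonical GENCODE transcript, the TCF/LEF core was found for *Axin2*, 22 bases before that start, and for *Nkd1*, 26 bases before it, and for no other member. Other GENCODE transcripts of both genes start further upstream, so both cores lie inside the annotated span of the gene. It was found in 7.52% of 21631 such windows of all genes. The FOXN1 core was found for 3 members, *Wnt5b*, *Kremen1* and *Nkd1*, against 23.7% of all windows. RefSeq sequences of GRCm39 from 250 bases before to 50 after the start were given for 6 of the members, and there the FOXN1 core lay 23 bases before the *Kremen2* start. In these RefSeq windows the FOXN1 core was also found for *Wnt5b* and *Lgr4* and the TCF/LEF core for *Wnt5b* alone, against 27.2% and 8.65% of all 32851 windows. The windows rest on different transcript starts, and the *Axin2* and *Nkd1* cores are not in the RefSeq windows nor is the *Kremen2* core in the GENCODE window. Each line gives 29 bases, 5′ to 3′ on the strand of the gene, with the core in capitals.
*Kremen2*, chr17:23964810-23964838, minus strand: gtcgtggactaaGCGTCcacgattcctgt
*Axin2*, chr11:108811605-108811633, plus strand: tcggctcgcgcCTTTGAAgtgcacagtta
*Nkd1*, chr8:89247888-89247916, plus strand: gtccgcctcgcCTTTGATgggccgctgcc
GCGTC in the *Kremen2* line is GACGC read on the other strand. These matches are descriptions of the letters and say nothing about binding.

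Taking the members together, the profile *in vivo* differed from each culture for most of them. Genes were tested with edgeR's quasi-likelihood test, adjusted over 14504 genes, and 9 of the 10 members passed the filter on low counts, *Nkd1* being left out. *In vivo* against 2D, 7 of 8 members tested differed, where 41.6% of all genes tested did. Of them 3 were higher *in vivo*, beside 21.7% of all genes, and 4 lower, beside 19.9%. Against D7 organoids 6 of 8 differed, *Kremen2* not counted, beside 34.8% of all genes, 4 of them higher *in vivo* (16.8% of all genes) and 2 lower (18%). Against D3 organoids it was 5 of 8, again without *Kremen2*, beside 28.2%, with 3 higher *in vivo* (14%) and 2 lower (14.1%). D7 organoids differed from 2D in 7 of 8 members, beside 45.5%, with 2 higher at D7 (24.4%) and 5 lower (21.1%). D3 organoids also differed from 2D in 7 of 8, beside 38.3%, with 2 higher at D3 (19.3%) and 5 lower (19.1%). Between D7 and D3 organoids 4 of 9 differed, beside 20.8%, with 2 higher at D7 (10.9%) and 2 lower (9.9%). That last count fell to 2 without D3 replicate 2 or without D7 replicate 2. The 2 members higher in both organoid groups than in 2D were *Wnt4* and *Axin2*. These comparisons share libraries and are not independent of each other. *Wnt5b* passed the filter only through 2D and D7 libraries. It is among the calls for *in vivo* against 2D, D3 against 2D and D7 against D3, which are not independent of that filter. *Kremen2* passed it only through *in vivo* and D7 libraries, so its call for D7 against D3 is not independent of it either. Since the members were named with results known, a share of calls above that of all genes is no evidence about the set.

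**Figure D1:**
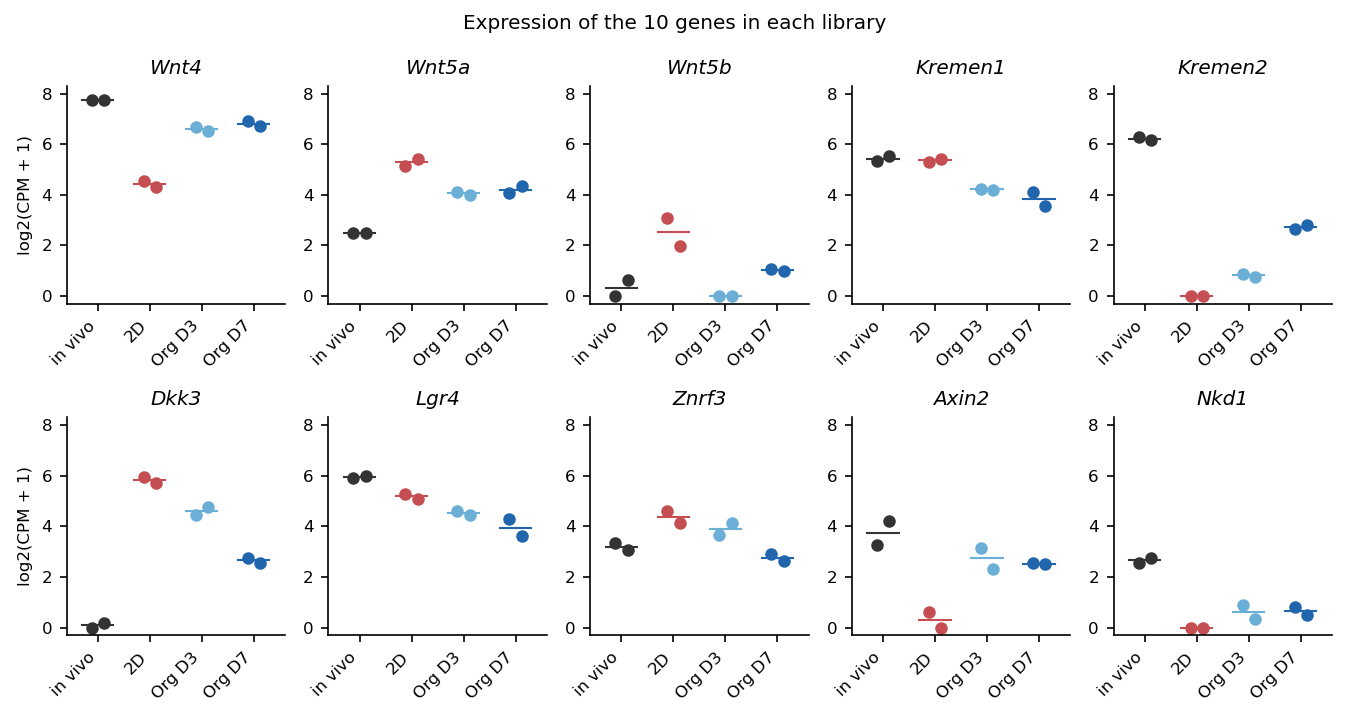
Level of each of the 10 genes as log2(CPM + 1) in each library, by group, with points for the 2 libraries and a line at their mean. *Kremen2* and *Nkd1* sit at 0 in both 2D libraries, *Dkk3* is at or near 0 *in vivo*, and *Wnt4* is lowest in 2D.

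*Wnt4* (chr4:137004373-137027037, plus strand, GRCm39), a ligand made by TECs, was the most abundant member *in vivo*. It stood at 216 and 216 CPM *in vivo*, 22.5 and 18.7 in 2D, 102 and 91.3 at D3 and 119 and 105 at D7. No group overlapped another, with *in vivo* on top, the organoids between and 2D at the bottom. *In vivo* it was 10.5-fold above 2D (log2 3.39 ± 0.18 SE, adjusted p = 1.9e-10 by edgeR), 1.92-fold above D7 (log2 0.94 ± 0.16, adjusted p = 0.00022) and 2.23-fold above D3 (log2 1.16 ± 0.16, adjusted p = 3.1e-05). D7 organoids held 5.45-fold and D3 organoids 4.69-fold more than 2D (adjusted p = 9.1e-09 and 3.6e-08 by edgeR). The step from D3 to D7, 1.16-fold, did not pass the test (log2 0.22 ± 0.16, adjusted p = 0.38 by edgeR). The thymocyte marker sums of the *in vivo* libraries were 602 and 257 CPM, and the part of thymocyte RNA in the values of *Wnt4* and the other members was not tested.

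*Wnt5a* (chr14:28226495-28249405, plus strand), a ligand best known for signalling without β-catenin, ran the other way. Its level was 4.68 and 4.64 CPM *in vivo*, 34.1 and 42 in 2D, 16.3 and 15 at D3 and 15.7 and 19.3 at D7. Both 2D libraries lay above every organoid library, and every organoid library above both *in vivo* ones, with D3 and D7 overlapping. 2D-cultured TECs had 8.13-fold more than *in vivo* TECs (log2 of *in vivo* over 2D −3.02 ± 0.28, adjusted p = 1.4e-07 by edgeR). D7 organoids had 3.72-fold and D3 organoids 3.35-fold more than *in vivo* TECs (adjusted p = 6.3e-05 and 0.00017 by edgeR). Both were below 2D, where the level was 2.18-fold that of D7 and 2.43-fold that of D3 (adjusted p = 0.0013 and 0.00058 by edgeR).

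*Wnt5b* (chr6:119409323-119521897, minus strand), the close relative of *Wnt5a*, was scarce. Its counts were 0 and 4 *in vivo*, 41 and 16 in 2D, 0 and 0 at D3 and 9 and 5 at D7. In CPM the 2D libraries stood at 7.43 and 2.96, above all others, and the *in vivo* and D3 groups overlapped. It was lower *in vivo* than in 2D (log2 −4.03 ± 1.2, adjusted p = 0.013 by edgeR), a call that was lost without *in vivo* replicate 1 (log2 −3.16, adjusted p = 0.051) and kept without *in vivo* replicate 2 (log2 −8, adjusted p = 0.0071), which leaves that group at 0. *Wnt5b* passed the filter through both 2D libraries and D7 replicate 1 alone, so without any of these 3 it has no test in any comparison. These are its higher groups, so p-values for 2D or D7 against *in vivo* or D3 are not independent of the filter. Taking 3 counts in each D3 library as the floor, 2D was at least 11.3-fold higher than D3 (adjusted p = 0.0018 by edgeR). The difference between D7 and 2D did not pass (log2 −2.28 ± 1.04, adjusted p = 0.087 by edgeR), but did with limma-voom (adjusted p = 0.04) and without *in vivo* replicate 1 or 2 (adjusted p = 0.037 and 0.036). D7 was at least 2.27-fold higher than D3 with an adjusted p of 0.048 by edgeR, which rose to 0.15 without D3 replicate 1, 0.16 without D3 replicate 2 and 0.13 without D7 replicate 2. This call was also lost with library size only (adjusted p = 0.054), limma-voom (0.061), the ribosomal RNA genes left out (0.051) and the replicate block (0.051).

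Set against all 19 Wnt ligand genes, *Wnt4* gave most of the ligand reads *in vivo* and in organoids, and *Wnt7b* most of them in 2D. The summed level was 244 and 238 CPM *in vivo*, 256 and 286 in 2D, 133 and 113 at D3 and 153 and 141 at D7. *Wnt4* took 88.3% (95% Wilson interval 86.5 to 89.9) and 90.7% (89.2 to 92) of these reads in the *in vivo* libraries. In 2D its share was 8.78% and 6.55%, while it was 77% and 80.6% at D3 and 78% and 74.3% at D7. *Wnt5a* took 1.92% and 1.95% *in vivo*, 13.3% and 14.7% in 2D, and 10.3% to 13.7% in the organoids. *Wnt7b*, a ligand of epithelia in skin and lung, was at 145 and 169 CPM in 2D against 1.56 and 1.55 *in vivo*. The shares rest on counts within a library and do not depend on how libraries were scaled, and their intervals cover counting error only.

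**Figure D2:**
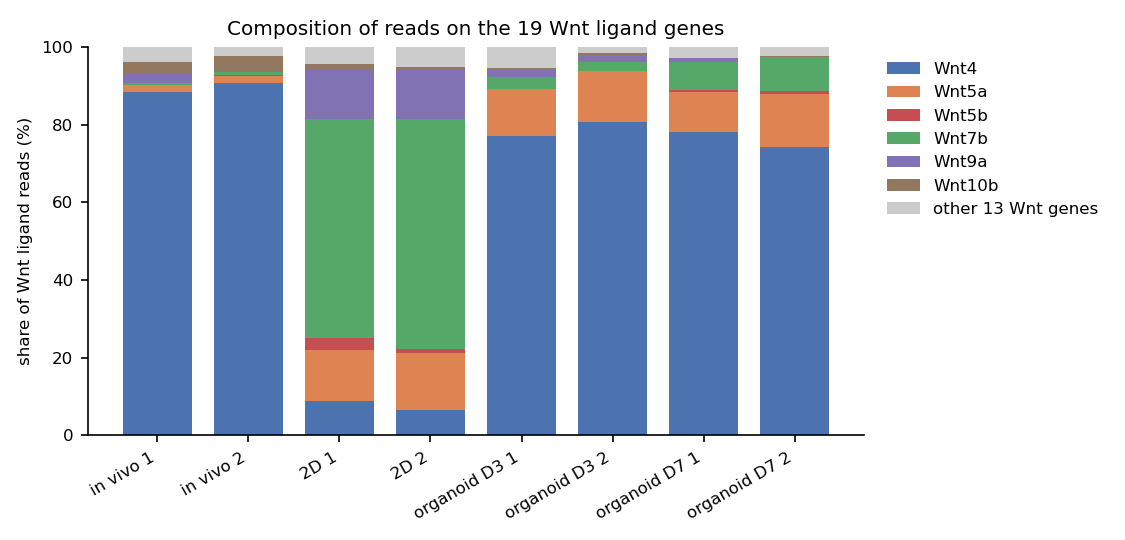
Share of the reads on the 19 Wnt ligand genes taken by 6 named ligands and the other 13, in percent of each library's Wnt ligand reads, with a bar for each library. *Wnt4* fills 88.3% and 90.7% *in vivo* and 74.3% to 80.6% in organoids, whereas *Wnt7b* fills most of both 2D bars.

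*Kremen2* (chr17:23960171-23965516, minus strand), one of the 2 receptors for Dickkopf proteins, had 443 and 502 counts *in vivo*, 0 and 0 in 2D, 5 and 5 at D3 and 43 and 30 at D7. In CPM this is 76.9 and 70.6 *in vivo*, 0.842 and 0.697 at D3 and 5.32 and 5.91 at D7. No group overlapped another, and both D3 libraries were barely above the floor. *In vivo* the level was at least 134-fold higher than in 2D, with D7 at least 10.2-fold and D3 at least 1.4-fold higher than 2D, each against a floor of 3 counts in each 2D library. These 3 bounds describe the loss for which the gene was picked.

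*In vivo* the *Kremen2* level was 13.2-fold above D7 organoids (log2 3.72 ± 0.27 SE) and 94.1-fold above D3 organoids (log2 6.56 ± 0.35 SE). These comparisons use the *in vivo* values of the loss for which the gene was picked, so no test is given. The comparison of the organoid groups uses neither, but *Kremen2* passed the filter on low counts only through *in vivo* and D7 libraries. Its p-value for D7 against D3 is therefore not independent of that filter. D7 organoids had 7.15-fold more than D3 organoids (log2 2.84 ± 0.41, adjusted p = 0.00022 by edgeR). *Foxn1* had 223 and 273 CPM *in vivo*, 8.52 and 4.82 in 2D, 8.76 and 9.61 at D3 and 60.5 and 84.9 at D7, and no relation between the 2 genes was tested. A gene on the opposite strand, *9530082P21Rik*, overlaps *Kremen2* by 3309 bases, and its own counts were 45 and 54 *in vivo*, 4 and 0 in 2D, 3 and 16 at D3 and 20 and 11 at D7. The strand used in counting is not given in the sources used here, and its part in the *Kremen2* values was not tested.

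*Kremen1* (chr11:5141548-5211727, minus strand), the other Kremen receptor, had a different order of groups. It stood at 39 and 45.1 CPM *in vivo*, 38.4 and 41.9 in 2D, 18 and 17.3 at D3 and 16.4 and 10.8 at D7. *In vivo* and 2D overlapped, and every organoid library lay below both. The ratio of *in vivo* to 2D was 1.05 (log2 0.07 ± 0.23, adjusted p = 0.84 by edgeR), and without *in vivo* replicate 2 its direction turned (log2 −0.046, adjusted p = 0.92). *In vivo* the level was 3.04-fold above D7 and 2.39-fold above D3 (log2 1.6 ± 0.24 and 1.25 ± 0.24, adjusted p = 5.9e-05 and 0.00059 by edgeR). In 2D it was 2.9-fold above D7 and 2.27-fold above D3 (adjusted p = 6.4e-05 and 0.00071 by edgeR). D7 and D3 did not differ past the threshold (log2 −0.35 ± 0.25, adjusted p = 0.35 by edgeR).

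As a share of the reads of both Kremen genes, *Kremen2* made up 66.3% (95% Wilson interval 62.6 to 69.8) and 61% (57.6 to 64.3) *in vivo*. In 2D it was 0 of 212 and 0 of 226 reads, with upper ends of the Wilson interval at 1.78% and 1.67%. At D3 the shares were 4.46% (1.92 to 10) and 3.88% (1.67 to 8.75), and at D7 24.4% (18.7 to 31.3) and 35.3% (26 to 45.9). *Kremen2* held the larger share in the *in vivo* libraries and the smaller one in all 6 culture libraries. The *in vivo* and 2D shares restate the loss for which the gene was picked.

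**Figure D3:**
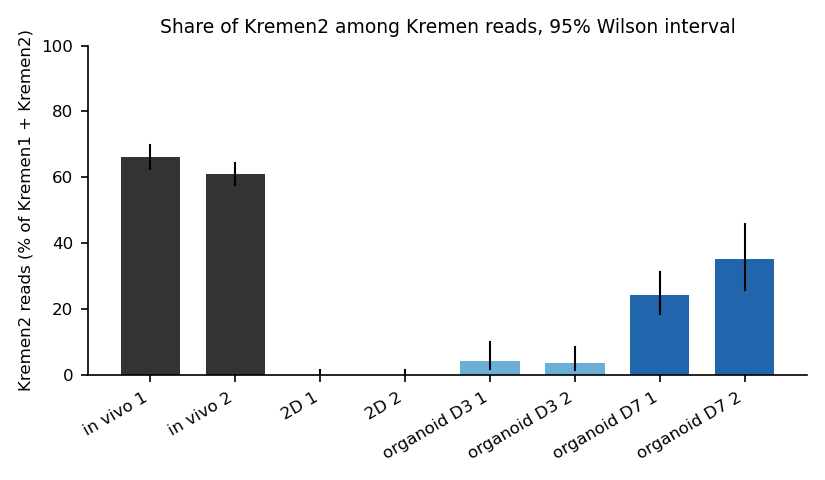
Reads of *Kremen2* as a percentage of *Kremen1* plus *Kremen2* reads in each library, with 95% Wilson intervals that cover counting error only. The bars run from 0 in 2D through about 4% at D3 and 24.4% and 35.3% at D7 to 66.3% and 61% *in vivo*. The *in vivo* and 2D bars restate the loss for which *Kremen2* was picked.

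Of 10774 tested genes with a mean of at least 5 CPM, the 5 whose pattern was most like that of *Kremen2* over the 8 libraries were *Nefm*, *Trpm2*, *Cd274*, *Tmem169* and *Erich3*. Their likeness, the root mean square difference of log2(CPM + 1) values centred on the gene's mean, was 0.22, 0.27, 0.37, 0.41 and 0.41. *Cd274*, which encodes the checkpoint ligand PD-L1, had 116 and 119 CPM *in vivo*, 2.36 and 1.67 in 2D, 4.38 and 2.93 at D3 and 12.1 and 15.2 at D7. *Nefm*, a neurofilament gene, had 157 and 189 CPM *in vivo*, 0.725 and 1.3 in 2D, 2.36 and 2.23 at D3 and 13.4 and 17.1 at D7. *Trpm2*, a calcium-permeable channel gene, had 56.4 and 69.9 CPM *in vivo*, and like *Kremen2* it had 0 in both 2D libraries. The likeness uses all 4 groups, 2D included, so the order of the groups in these genes is fixed by the choice.

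*Dkk3* (chr7:111712904-111758760, minus strand), a divergent member of the Dickkopf family of secreted proteins, was nearly absent *in vivo* and present in every culture. Its counts were 0 and 1 *in vivo*, 334 and 274 in 2D, 122 and 187 at D3 and 47 and 25 at D7. In CPM the 2D libraries stood at 60.5 and 50.8, D3 at 20.6 and 26.1 and D7 at 5.81 and 4.93, so that no group overlapped another. 2D exceeded *in vivo* by a ratio of 717 (95% counting interval 128 to 28400, adjusted p = 2.3e-10 by edgeR). The ratio was 303 (54 to 12000) for D3 and 70.4 (12.2 to 2820) for D7 over *in vivo* (adjusted p = 6.4e-09 and 3.3e-06 by edgeR). These ratios rest on a single *in vivo* count. Fitted values moved with each *in vivo* library, from log2 −9.16 for *in vivo* over 2D to −8.44 without replicate 1 and −11.42 without replicate 2. For *in vivo* over D7 they went from −5.8 to −5.08 and −8.05, and over D3 from −7.9 to −7.18 and −10.17, in the same order. Among cultures, 2D held 10.2-fold more *Dkk3* than D7 organoids (log2 of D7 over 2D −3.36 ± 0.28, adjusted p = 5.1e-08 by edgeR) and 2.38-fold more than D3 organoids (adjusted p = 0.00066). D7 was below D3, which held 4.3-fold more (adjusted p = 9.6e-05 by edgeR). The mesenchymal marker sum was 49.3 and 52.9 CPM *in vivo*, 40.8 and 34.1 in 2D, 27 and 22.4 at D3 and 81.4 and 73.5 at D7. Single markers ran differently, with *Col1a1* at 12.9 and 9.63 CPM in 2D and *Dcn* at 53.4 and 50.8 CPM at D7 as the highest levels of each, and the part of mesenchymal RNA in the *Dkk3* values was not tested.

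*Lgr4* (chr2:109747839-109844609, plus strand), the R-spondin receptor that keeps Frizzled at the surface, was highest *in vivo*. It stood at 59.7 and 61.7 CPM *in vivo*, 38.3 and 33.2 in 2D, 23.2 and 21 at D3 and 18.6 and 11.2 at D7, with no overlap between groups. *In vivo* it was 4-fold above D7 (log2 2 ± 0.24, adjusted p = 5.7e-06 by edgeR), 2.74-fold above D3 (log2 1.46 ± 0.23, adjusted p = 0.00013) and 1.7-fold above 2D (log2 0.77 ± 0.23, adjusted p = 0.012). The call against 2D was lost without 2D replicate 2 (log2 0.66, adjusted p = 0.098). D7 was below 2D, which held 2.36-fold more (adjusted p = 0.00052 by edgeR). The smaller difference between D3 and 2D, 1.61-fold, passed the threshold (adjusted p = 0.028 by edgeR) but lost it without any one of these 4 libraries (adjusted p 0.15 and 0.052 without 2D replicates 1 and 2, 0.069 and 0.15 without D3 replicates 1 and 2) and with library size as the only scaling (log2 −0.43, adjusted p = 0.18). D7 over D3 did not pass (log2 −0.55 ± 0.25, adjusted p = 0.13 by edgeR), though without D7 replicate 1 it did (log2 −0.97, adjusted p = 0.036).

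*Znrf3* (chr11:5226324-5394939, minus strand), the ligase that clears Frizzled and is itself a Wnt target, was highest in 2D. Its level was 9.2 and 7.31 CPM *in vivo*, 23.2 and 16.7 in 2D, 11.5 and 16.6 at D3 and 6.55 and 5.12 at D7. Neighbouring groups in the order 2D, D3, *in vivo*, D7 did not differ past the threshold, although their values did not overlap. 2D was 2.42-fold above *in vivo* (log2 of *in vivo* over 2D −1.28 ± 0.33, adjusted p = 0.0052 by edgeR), a call lost without 2D replicate 1 (log2 −1.02, adjusted p = 0.073). 2D was 3.37-fold above D7 (adjusted p = 0.00049 by edgeR). D3 was 2.38-fold above D7 (adjusted p = 0.016 by edgeR), which was lost without D3 replicate 2 or D7 replicate 2 (adjusted p = 0.12 and 0.15). The ratios of *in vivo* to D7, 1.39, and of D3 to *in vivo*, 1.71, did not pass (adjusted p = 0.32 and 0.097 by edgeR).

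*Axin2* (chr11:108811169-108841609, plus strand), the most widely used readout of β-catenin signalling, was almost lost in 2D and kept in part in organoids. Its counts were 49 and 123 *in vivo*, 3 and 0 in 2D, 47 and 29 at D3 and 39 and 24 at D7. In CPM that is 8.5 and 17.3 *in vivo*, 0.544 and 0 in 2D, 7.92 and 4.04 at D3 and 4.82 and 4.73 at D7. Both 2D libraries were below all others, D3 and D7 overlapped, and the *in vivo* replicates differed by more than those of any other group in CPM. *In vivo* exceeded 2D by a ratio of 48.6 (95% counting interval 16.4 to 238), D3 by 21.1 (6.95 to 105) and D7 by 17.4 (5.69 to 86.7), with adjusted p = 2.9e-05, 0.0005 and 0.00093 by edgeR. All 3 calls held without either 2D library, but the fitted values moved. *In vivo* over 2D went from log2 5.46 to 9.37 without 2D replicate 1, to 4.52 without 2D replicate 2 and to 4.85 without *in vivo* replicate 2. D3 over 2D went from 4.34 to 8.24 and 3.39, and D7 over 2D from 4.03 to 7.93 and 3.08, without 2D replicates 1 and 2.

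The difference of *Axin2* between *in vivo* and organoids was at the edge of the test. *In vivo* it was 2.7-fold above D7 (log2 1.43 ± 0.54, adjusted p = 0.047 by edgeR), and this fell to log2 0.83 with an adjusted p of 0.35 without *in vivo* replicate 2. It was also lost without D3 replicate 1, D7 replicate 1 or D7 replicate 2 (adjusted p = 0.053, 0.17 and 0.19), with the DESeq2 Wald test (adjusted p = 0.052) and with library size only (adjusted p = 0.054). *In vivo* over D3, 2.18-fold, did not pass (log2 1.12 ± 0.53, adjusted p = 0.13 by edgeR), but it did with limma-voom (adjusted p = 0.041). D7 over D3 was log2 −0.31 ± 0.55 (adjusted p = 0.75 by edgeR), and turned to log2 0.24 without D3 replicate 1 (adjusted p = 0.87).

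*Nkd1* (chr8:89247890-89324577, plus strand), an inhibitor that binds Dishevelled and a target of the pathway, was found mainly *in vivo*. Its counts were 28 and 41 *in vivo*, 0 and 0 in 2D, 5 and 2 at D3 and 6 and 2 at D7. In CPM the *in vivo* libraries had 4.86 and 5.76, the organoids 0.279 to 0.842, and D3 and D7 overlapped. *In vivo* it was at least 9.66-fold higher than in 2D, taking 3 counts in each 2D library. With only 2 libraries above 1 CPM the gene could not pass a filter that asks for 3, and a fit of 25395 genes with no filter was used for it instead. There it was higher *in vivo* than in 2D (adjusted p = 3.2e-05 by edgeR), than at D7 (log2 3.1 ± 1.05, adjusted p = 0.017) and than at D3 (log2 3.14 ± 1.06, adjusted p = 0.02). D7 and D3 over 2D did not pass in that fit (adjusted p = 0.059 and 0.074 by edgeR).

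**Figure D4:**
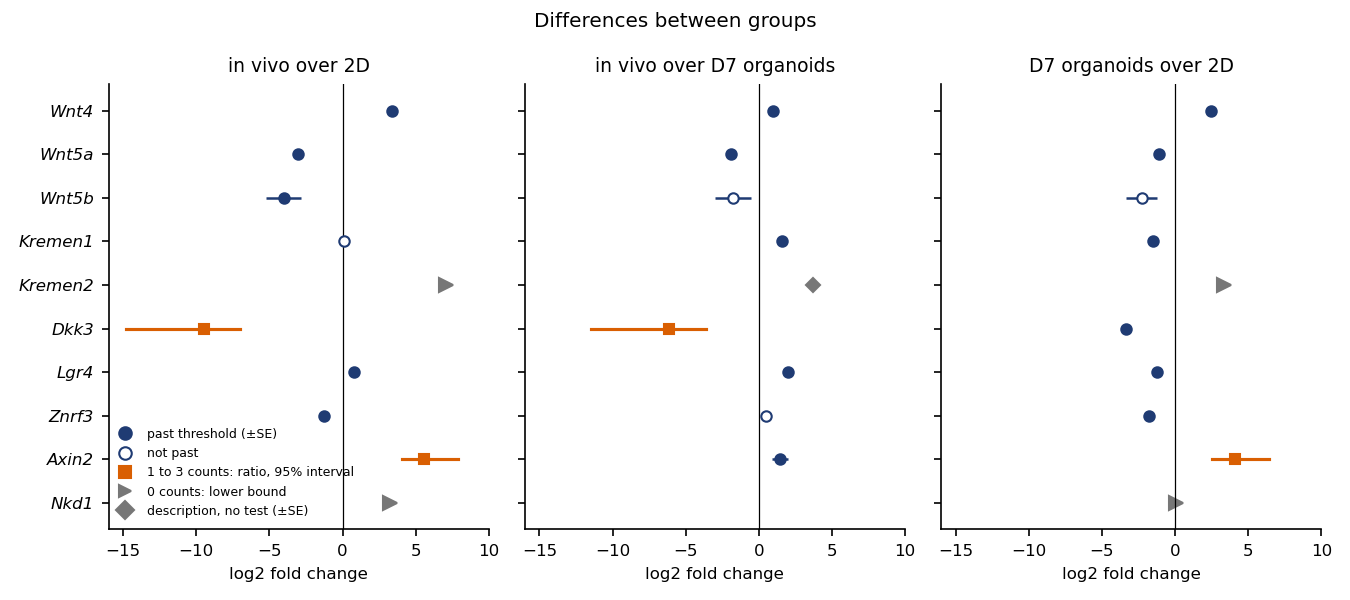
Log2 fold change of each gene in 3 comparisons, to the right where the first-named group is higher. Circles are edgeR values ± SE, filled where past the adjusted threshold of 0.05, the diamond is *Kremen2* without a test, squares are ratios with 95% counting intervals where a group had 1 to 3 counts in all, and triangles are lower bounds where a group had 0. *Wnt4* and *Axin2* lie to the right and *Wnt5a* and *Dkk3* to the left of 0 when *in vivo* TECs are set against 2D or against D7 organoids, and *Nkd1* has no point in the second panel because the filter left it out.

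Read by role, the feedback genes and the R-spondin receptor *Lgr4* did not share a single order. In level, *Axin2* and *Nkd1* were lowest in 2D, *Znrf3* was highest there, and *Lgr4* was lowest at D7. Against the group next in level, only *Axin2* differed past the threshold, with *Nkd1* read from the fit with no filter. *Kremen2* was lost in 2D while *Kremen1* stayed at 38.4 and 41.9 CPM there. Between the ligands, *Wnt4* fell and *Wnt5a* rose from *in vivo* to each of the 3 cultures.

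The other genes of the pathway, grouped in 8 lists and without the members, varied in both directions. Over all genes, 21.7% were higher and 19.9% lower *in vivo* than in 2D. At D7 against 2D these shares were 24.4% and 21.1%. The lists are short and were chosen with results known, so their counts are descriptions. Among 15 other receptors and co-receptors tested, 6 were higher and 4 lower *in vivo* than in 2D, with a median log2 of −0.032 beside 0.056 over all genes. The largest change there was *Ror1*, a receptor for WNT5A, at 32.1 and 24.2 CPM *in vivo* and 2.36 and 2.96 in 2D (log2 3.39 ± 0.32, adjusted p = 1.8e-07 by edgeR). Its close relative *Ror2*, named after its values were seen, ran the other way. It had 5.38 and 3.66 CPM *in vivo* and 8.34 and 8.15 in 2D (log2 −0.88 ± 0.32, adjusted p = 0.034 by edgeR). *Fzd5* led *in vivo* over D7 (log2 2.14 ± 0.39, adjusted p = 0.00036 by edgeR) and *Fzd1* was lower at D7 than in 2D (log2 −3.83 ± 0.3, adjusted p = 1.9e-08). Both are Frizzled receptors. Between D7 and D3, 0 of these 15 were higher and 7 lower, beside 10.9% and 9.9% of all genes, and 5 were lower without D7 replicate 2.

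Of the 6 other ligands tested, 1 was higher and 2 lower *in vivo* than in 2D, with a median log2 of −0.28, and 1 was higher and 5 lower at D7 than in 2D, with a median of −3.78 beside 0.1 over all genes. *Wnt7b* was lower *in vivo* than in 2D (log2 −6.64 ± 0.29, adjusted p = 1.2e-11 by edgeR). *Wnt9a*, at 32.1 and 35.7 CPM in 2D, was lower at D7 (log2 −5.13 ± 0.65, adjusted p = 6.1e-06 by edgeR). *Wnt10b*, at 7.29 and 8.86 CPM *in vivo*, had 1 count in each D7 library, a ratio of 53.7 (95% counting interval 14.5 to 449, adjusted p = 0.00025 by edgeR). *Wnt10b* passed the filter only through *in vivo* and 2D libraries, so this p-value is not independent of the filter. Of 6 genes for ligand release and removal, 0 were higher and 4 lower *in vivo* than in 2D, with a median log2 of −0.87. *Porcn*, which adds the lipid that Wnt proteins need, was among the 4 (log2 −2.01 ± 0.59, adjusted p = 0.011 by edgeR). *Gpc6*, a glypican, was lower *in vivo* than at D7 (log2 −2.27 ± 0.29, adjusted p = 1e-05 by edgeR), and *Tinagl1* was lower at D7 than in 2D (log2 −2.05 ± 0.22, adjusted p = 1.1e-06).

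The secreted antagonists beside *Dkk3* ran in both directions. Of 5 tested, 3 were higher and 1 lower *in vivo* than in 2D (21.7% and 19.9% of all genes), with a median log2 of 2.83. At D7 against 2D, 4 were higher and 1 lower (24.4% and 21.1% of all genes), with a median of 2.73. *Apcdd1*, a membrane-bound inhibitor and Wnt target, had 19.1 and 18.3 CPM *in vivo* and 1.81 and 0.37 in 2D (log2 4.06 ± 0.5, adjusted p = 4.5e-06 by edgeR). *Igfbp4*, an IGF-binding protein that can also bind Wnt receptors, had 14.1 and 13.4 CPM *in vivo*, 9.43 and 19.6 in 2D and 1030 and 1060 at D7, so that *in vivo* was below D7 (log2 −6.25 ± 0.26, adjusted p = 2.3e-11 by edgeR). *Dkk2*, a Dickkopf that binds LRP6 and Kremen, had 9.79 and 6.48 CPM in 2D and 1 and 0 counts at D7, a ratio of 107 (18.8 to 4290, adjusted p = 0.00035 by edgeR). *Dkk2* passed the filter only through *in vivo* and 2D libraries, so this p-value is not independent of the filter.

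In the R-spondin axis, *Lgr6* and *Lgr5* both ran differently from their relative *Lgr4*. *Lgr6* had 0 counts in both *in vivo* libraries, 76.7 and 97.6 CPM in 2D, 5.05 and 4.6 at D3 and 6.06 and 6.5 at D7. Against a floor of 3 counts in each *in vivo* library, it was at least 185-fold higher in 2D and at least 13.3-fold higher at D7 (adjusted p = 8.7e-11 and 8.5e-07 by edgeR), and D7 was below 2D (log2 −3.8 ± 0.26, adjusted p = 9.1e-09). *Rnf43*, the close relative of *Znrf3*, had 32.8 and 41.1 CPM *in vivo* and 10.2 and 12 in 2D, and was therefore higher *in vivo* (log2 1.74 ± 0.28, adjusted p = 8.6e-05 by edgeR), the opposite direction to *Znrf3*. *Lgr5* had 0.694 and 1.12 CPM *in vivo*, 14.7 and 21.1 in 2D, 26.8 and 27.7 at D3 and 10.5 and 9.26 at D7. *Rnf43*, *Lgr5* and the R-spondin genes below were chosen for mention after their values were seen. Of the 5 axis genes tested beside the members, 1 was higher and 2 lower *in vivo* than in 2D. Against D7, 1 was higher and 4 lower *in vivo*, beside 16.8% and 18% of all genes, with a median log2 of −3.39. The 4 were *Lgr5*, *Lgr6* and the R-spondin genes *Rspo1* and *Rspo3*. *Rspo1* passed the filter only through organoid libraries, so its call is not independent of the filter. *Rspo3* had 0.174 and 1.41 CPM *in vivo* and 24.5 and 20.1 at D7.

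Downstream, 19 other genes of the cytoplasmic relay had 3 higher and 2 lower *in vivo* than in 2D and 7 higher and 4 lower at D7 than in 2D. *Dact1*, which binds Dishevelled, had 23.3 and 16.7 CPM *in vivo* and 0.544 and 0.741 in 2D (log2 4.92 ± 0.61, adjusted p = 4.4e-06 by edgeR), and was also above D7 (log2 2.98 ± 0.49, adjusted p = 0.00016). *Dact2* was higher at D7 than in 2D (log2 3.32 ± 0.21, adjusted p = 1.2e-09 by edgeR). Of 11 nuclear factors, 4 were higher and 1 lower *in vivo* than in 2D. *Tcf7*, a TCF factor that thymocytes also express strongly, had 108 and 42.9 CPM *in vivo* and 10.9 and 5.37 in 2D (log2 3.21 ± 0.42, adjusted p = 8.3e-06 by edgeR). Against D7 organoids, at 1.61 and 0.985 CPM, it had the largest change of the nuclear factors tested (log2 5.78 ± 0.52, adjusted p = 2.1e-07 by edgeR). Of the target genes, it led those reaching 5 CPM in each library of the higher group. *Sp5*, short of that level, had a larger fitted change (log2 −7.39 ± 1.45). *Lef1*, left out by the filter, had 91.3 and 42 CPM *in vivo* and at most 0.926 CPM in any culture. Both *Tcf7* and *Lef1* were higher in the *in vivo* library with the higher thymocyte sum, 602 against 257 CPM. The part of thymocyte RNA in them was not tested. *Pygo1* was higher at D7 than in 2D (log2 2.87 ± 0.23, adjusted p = 3e-08 by edgeR).

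Of 12 widely used Wnt target genes tested, *Axin2* and *Znrf3* among them, 6 were higher and 4 lower *in vivo* than in 2D, and of the 10 beside these 2 members, 5 were higher and 3 lower. The median log2 of the 10 was 0.95, or 1.74 without *Sp5*, which had 0 counts in both groups. Against D7, 6 of the 10 were higher and 3 lower *in vivo*, beside 16.8% and 18% of all genes, with a median of 1.27. The 3 lower were *Lgr5*, *Ccnd1* and *Sp5* (adjusted p = 7.6e-06, 1.3e-08 and 0.0011 by edgeR). *Sp5* passed the filter only through organoid libraries, so its p-value is not independent of the filter. *Tnfrsf19*, which encodes the receptor TROY, had 47 and 35.7 CPM *in vivo* and 0.906 and 0.37 in 2D (log2 5.97 ± 0.43, adjusted p = 6.3e-09 by edgeR). *Cd44*, an adhesion receptor, had 498 and 428 CPM in 2D and 12.4 and 16 at D7 (log2 of D7 over 2D −5.05 ± 0.2, adjusted p = 6.4e-12 by edgeR). At D7 against 2D, 4 of the 10 were higher and 5 lower, with a median of −0.16. Between D7 and D3, 0 of the 10 were higher and 5 lower, or 4 lower without D3 replicate 1, D7 replicate 1 or D7 replicate 2, with a median of −1.14 beside 0.059 over all genes.

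**Figure D5:**
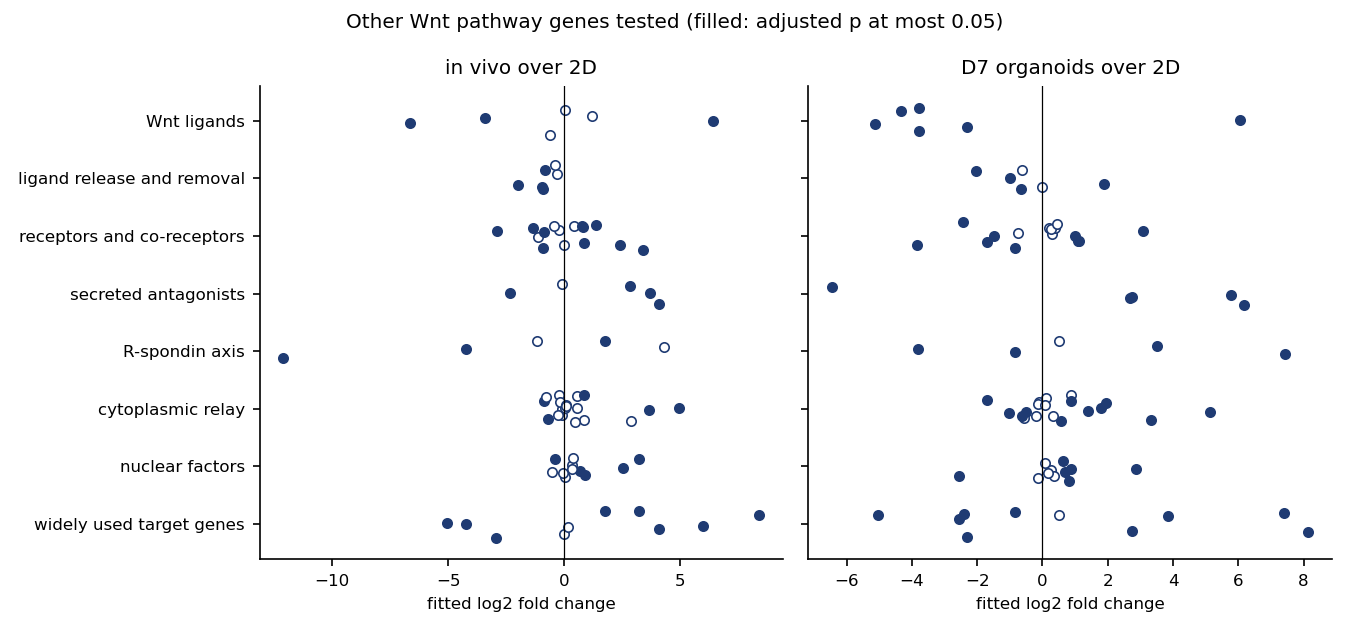
Fitted log2 fold change of each tested pathway gene by list, without the members, for *in vivo* over 2D on the left and D7 organoids over 2D on the right, filled where past the threshold. Points lie on both sides of 0 in nearly every list, and fitted values against a group at 0 counts, such as *Lgr6* near −12, depend on the fit and are no bound.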

How the data were processed

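QuantSeq 3′ mRNA-Seq libraries were made from 88 ng of RNA. For each of the 8, the authors used STAR to map reads to GRCm39, and raw gene-level counts were deposited under Ensembl identifiers. Annotation release, strand and the handling of reads with several positions are not given in the sources used here. Symbols came from GENCODE vM39, where 56236 of 56923 rows matched and 687 did not. Per the labels, R 4.1.2, edgeR and limma were used.

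Counts were scaled by TMM factors (0.88 to 1.09), and the filter asked for 1 CPM or more in 3 or more libraries, which 14504 genes met. edgeR's quasi-likelihood test was fitted to all libraries with a mean per group, and p-values were adjusted by Benjamini-Hochberg over all genes kept, with a threshold of 0.05. The study's limma-voom test was run as an alternative. Tools were R 4.3.3, edgeR 4.0.16, limma 3.58.1, DESeq2 1.42.0, Python 3.11.15, pandas 2.3.3 and matplotlib 3.10.9. These steps were tested on simulated data. With 2 against 2 libraries an exact permutation test cannot go below p = 0.333, so p-values rest on the fit across genes. The labels call the replicates biological, and the study gives 2 mice per condition.

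The 10 genes and the pathway and marker lists were chosen with earlier results of these data known. From each list the text names, for *in vivo* against 2D, *in vivo* against D7 and D7 against 2D, the gene that is not a member with the largest change past the threshold among those that reach 5 CPM in each library of the group where they are higher. Intervals and floors cover counting error only.

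Of the members' 50-base words in the last 500 bases of transcripts, 0% to 5.38% occur in other genes, none of them in a listed Wnt gene or another member. *Wnt4* and *Dkk3* overlap no annotated gene, and *Wnt5a*, *Wnt5b*, *Kremen1*, *Kremen2*, *Axin2*, *Nkd1*, *Lgr4* and *Znrf3* overlap a gene on the opposite strand, from which their reads may not be told apart. *Wnt5b*, *Nkd1* and *Znrf3* also overlap a gene on their own strand.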

Additional observations from a re-analysis of the deposited data

How the results depend on the processing

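The alternatives were DESeq2's size factors, library size only, the DESeq2 Wald test, limma-voom, no filter, a mean of at least 10 CPM, no ribosomal RNA genes, a replicate block and each library left out, where a lone library is assumed to vary like the other groups. With 1 library left out, genes differing were 4543 to 6080 for *in vivo* against 2D (6031 with all 8), 3015 to 5031 for *in vivo* against D7 (5043), 2886 to 3906 for *in vivo* against D3 (4089), 4708 to 6884 for D7 against 2D (6605), 4130 to 5965 for D3 against 2D (5560) and 1183 to 3417 for D7 against D3 (3011). The lowest count for D7 against D3 was without D7 replicate 2, as was the 3015, and 1659 were called without D3 replicate 1. Members differing were 5 to 7, 6 to 7, 6 to 6, 7 to 8, 5 to 7 and 2 to 4 in the same order, *Kremen2* counted outside the 2D comparisons. These member counts, and the tallies of values below, include *Kremen2* for *in vivo* against D7 and D3, where no test is given above. With all 8 libraries the member counts there were 7 and 6, or 6 and 5 without *Kremen2*. No member turned in direction under a scaling, filter, tool or block. With 1 library left out *Kremen1* ran from log2 −0.046 to 0.17 between *in vivo* and 2D and *Axin2* from −0.79 to 0.24 between D7 and D3, all short of the threshold. Over the members, 369 of 390 values with 1 library left out and 387 of 396 under other alternatives kept direction and side of the threshold. A further 18 and 12 values could not be fitted, because *Wnt5b* failed the filter without 2D replicate 1, 2D replicate 2 or D7 replicate 1, and *Wnt5b* and *Axin2* failed a mean of 10 CPM. With library size only, the share of calls that were higher moved from 52.2% to 62.8% for *in vivo* against 2D, from 53.6% to 65.2% for D7 against 2D and from 50.3% to 67.3% for D3 against 2D, with all-gene medians of log2 0.23, 0.31 and 0.29. Deviations of same-numbered libraries correlated by 0.038 to 0.15, above 0.1 in 3 of 6 pairs of groups, and since not every pair was above 0.1 the numbers were not taken to pair the samples. The replicate block gave 6366, 5452, 4475, 6907, 5925 and 3585 genes, and among the members it removed the call of *Wnt5b* between D7 and D3 alone (adjusted p = 0.051 by edgeR). Depth limits *Wnt5b* and *Nkd1* most, with at most 41 counts in any library.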
